A study of Mus musculus with 7 samples.

Results

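Expression of 10 genes of iron and heme handling in cardiomyocytes, the myoglobin gene among them, was followed from postnatal day 6 (P6) to postnatal day 30 (P30). The members were taken by symbol from the deposited count table: Tfrc, Slc11a2, Fth1, Ftl1, Slc40a1, Alas1, Fech, Hmox1, Hmox2 and Mb. All 10 were among the 23337 genes of the table, and all 10 were among the 12561 genes that passed the filter on low counts. RNA sequencing had been done on mouse cardiomyocytes at P6 (4 libraries, P6a to P6d by their column letters) and at P30 (3 libraries, P30a to P30c). Mice of both ages carried the genotype given as Rosa-Tom/Cas9, that is, a Rosa-Tom or a Rosa-Cas9 allele, and which animal had which allele is not stated. Mice of both ages had received AAV9-cTNT-Cre on day 1, a virus in which the cardiac troponin T promoter drives Cre recombinase, so age and time since the virus cannot be told apart. Cells were released by collagenase perfusion and sorted by fluorescence. Whether each library came from its own animal is not stated, so the p-values rest on library-to-library spread, part of which may be technical.

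Iron enters most cells bound to transferrin, which is taken up by the transferrin receptor, and it leaves endosomes through a divalent metal transporter. In the cell it is stored in ferritin, exported by ferroportin, or carried into mitochondria for heme and iron-sulfur clusters, where ferrochelatase inserts it into protoporphyrin. Heart muscle uses heme for the cytochromes of the respiratory chain and for myoglobin, the oxygen-binding protein that gives red muscle its colour, and heme oxygenases break heme down and free its iron. Several of these mRNAs carry an iron-responsive element, a short hairpin in an untranslated region (UTR) that binds the iron regulatory proteins. An element in the 5′ UTR lets these proteins block translation when iron is scarce, whereas elements in the 3′ UTR of the transferrin receptor mRNA protect that mRNA from decay.

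In the GENCODE M21 annotation of GRCm38, the uptake genes lie at chr16:32608920-32632794 (Tfrc, plus strand) and chr15:100387898-100425072 (Slc11a2, minus). The ferritin genes lie at chr19:9980598-9985098 (Fth1, plus) and chr7:45457944-45459884 (Ftl1, minus), and the exporter at chr1:45908068-45926523 (Slc40a1, minus). Alas1 lies at chr9:106233455-106248654 (minus). The heme oxygenase genes lie at chr8:75093621-75100589 (Hmox1, plus) and chr16:4726361-4766742 (Hmox2, plus), and myoglobin at chr15:77015487-77050670 (Mb, minus).

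The hairpins are shown because they separate the members into those with an element in the 5′ UTR, those with one in the 3′ UTR and those with none found. GENCODE M21 transcripts (GRCm38, the same assembly as mm10) were searched for a bulged C, 5 bases of stem, the letters CAGTGN of the loop and 5 bases that pair with the stem, with G-T pairs allowed. Such a match lay in a UTR of 4 of the 10 members, against 0.778% of 22500 coding genes. The members were chosen as iron genes, several known to carry the element, so this contrast follows from the choice and is no result of the search. Allowing 1 unpaired base in the second side of the stem added Slc11a2, and 2.61% of coding genes then had a match. Capitals mark the bulged C and the CAGTG of the loop, and each sequence is given 5′ to 3′ on the strand of the gene.
Tfrc 3′ UTR, chr16:32631220-32631247, plus strand: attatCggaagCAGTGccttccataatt
Tfrc 3′ UTR, chr16:32631599-32631626, plus strand: attatCgggagCAGTGtcttccataatg
Tfrc 3′ UTR, chr16:32631664-32631691, plus strand: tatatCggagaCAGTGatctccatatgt
Tfrc 3′ UTR, chr16:32631711-32631738, plus strand: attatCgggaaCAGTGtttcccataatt
Slc11a2 3′ UTR, chr15:100395152-100395180, minus strand: gccatCagagcCAGTGtgtttctatggtt
Fth1 5′ UTR, chr19:9982733-9982760, plus strand: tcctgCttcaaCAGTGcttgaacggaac
Ftl1 5′ UTR, chr7:45459779-45459806, minus strand: tcttgCttcaaCAGTGtttgaacggaac
Slc40a1 5′ UTR, chr1:45925465-45925492, minus strand: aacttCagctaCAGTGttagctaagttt
Tfrc had 4 such matches and each of the other genes listed 1. Hairpins of another arrangement would be missed. A match in any annotated transcript was kept, so other transcripts of the same gene, counted with it, may lack the match. The pattern was not found in a UTR of Alas1, Fech, Hmox1, Hmox2 or Mb, which says only that these letters were not there in this arrangement.

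Between the ages 7 of the 10 members rose, 1 fell and 2 did not pass the test, and no change reached 2-fold. Genes of iron uptake (Tfrc, Slc11a2), ferroportin (Slc40a1), both heme synthesis genes (Alas1, Fech), the constitutive heme oxygenase gene (Hmox2) and myoglobin (Mb) were higher at P30, by 17.4% for Fech up to 70.7% for Slc11a2. Ftl1, the ferritin light chain gene, was lower. The test was edgeR's quasi-likelihood test with Benjamini-Hochberg adjustment over all tested genes and a threshold of 0.05. By it 54.1% of all tested genes were called, 26.3% as higher and 27.8% as lower, so calls were common in this comparison. The median log2 fold change (P30 over P6) of the members was 0.48, beside -0.016 for all tested genes, and the median absolute change was 0.53 beside 0.52, so the members moved about as far as the typical gene. The members were chosen with earlier results of these data known, so their balance of directions may reflect that choice. Values are given as CPM, counts per 1000000 on TMM-scaled library sizes. The CPM ranges of 8 members did not overlap between the ages, against 56.6% of tested genes; 7 of these were higher at P30 (27.8% of tested genes) and 1 lower (28.8%). Without P30b, the library with the most counts of macrophage, endothelial and stress genes, 5 members were higher and 1 lower. Calls over all tested genes also fell without it, from 3307 higher and 3490 lower to 2813 and 2885.

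**Figure D1:**
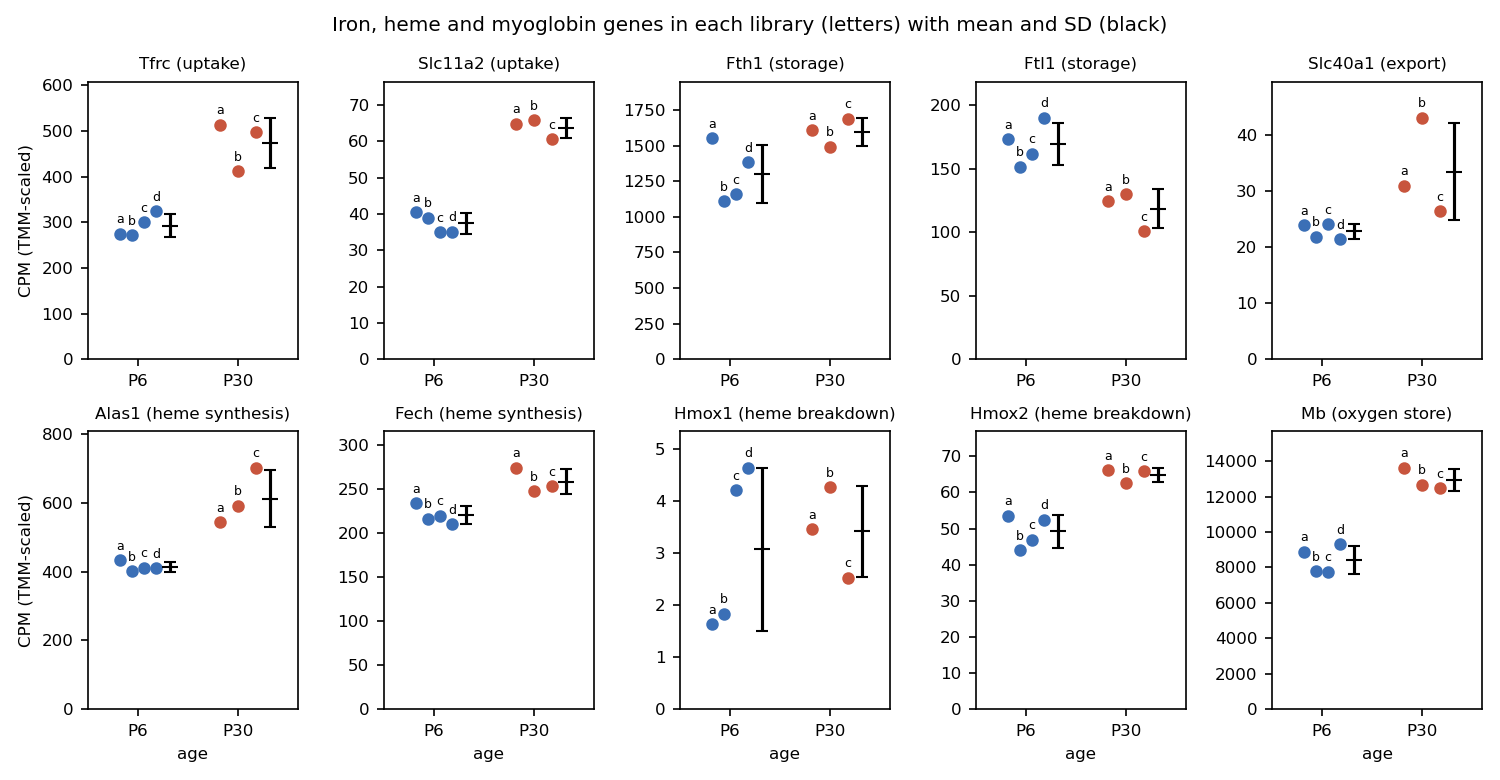
CPM of each of the 10 genes (vertical axes, each from 0) in the 4 P6 libraries (blue) and the 3 P30 libraries (red), with letters naming the libraries and black bars giving the mean and SD. The ages do not overlap for any gene except Fth1 and Hmox1; Ftl1 is the gene that is lower at P30.

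Total counts were between 10594932 and 51427646 at P6 and between 15555469 and 19368717 at P30, and no library duplicated another. The cardiomyocyte markers Myh6 (33636 ± 5693 CPM, SD, n = 4, at P6 and 57300 ± 2252 CPM, SD, n = 3, at P30) and Tnnt2 (9795 ± 759 and 9346 ± 596 CPM) were abundant in every library. Of the 8 cardiomyocyte markers 4 were higher at P30, Myh6 among them, and the other 4, Tnnt2 among them, did not pass. Beside this count and those of the lists below, 26.3% of all tested genes were called higher and 27.8% lower. Markers of erythroid cells, which make most of the body's heme, summed to 0.461 to 2.33 CPM at P6 and 0.614 to 1.12 CPM at P30 over 9 genes. Among these the globin genes Hba-a1 and Hba-a2 were listed at 0 in all 7 libraries. These 2 genes are near copies of each other, so the check rests on the other genes, of which Alas2 and Epor had the most counts. Markers of other cell types differed in direction. Macrophage markers (15 genes, 10 of 10 tested higher) summed to 3.98 to 6.46 CPM at P6 and 18.4 to 56.1 CPM at P30, with the highest sum in P30b. The filter on low counts could keep some of the 10, such as Cx3cr1 (0.0900 ± 0.123 and 1.27 ± 0.513 CPM), only through the P30 libraries. For these the direction was largely set by the filter, whereas the sums use all 15 genes. Endothelial markers (9 genes, 7 of 9 tested higher) summed to 94.5 to 178 CPM at P6 and 295 to 599 CPM at P30, again with the highest sum in P30b. Of 7 smooth muscle and pericyte markers 4 were higher (Myh11, Rgs5, Pdgfrb and Kcnj8). The sum of the 7, mostly Acta2, was 975 to 2187 CPM at P6 and 973 to 1815 CPM at P30. Acta2 was far above the other markers of this list in every library, so the sum says little of them. Fibroblast markers (8 genes, 1 of 7 tested lower) summed to 158 to 391 CPM at P6 and 137 to 313 CPM at P30. Of 19 genes of dissociation and stress 14 were higher at P30, led in counts by Dusp1 and Jun, with sums of 546 to 654 CPM at P6 and 1938 to 3074 CPM at P30. In bulk RNA a smaller share of a cell type and less RNA per cell cannot be told apart.

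Tfrc, the transferrin receptor, had 275, 272, 300.1 and 324.5 CPM in P6a to P6d, against 514, 412 and 497 CPM in P30a to P30c. Every P30 library was above every P6 library, with P30b the lowest of the P30 libraries. The P6 mean was 293 ± 24.8 CPM (SD, n = 4) and the P30 mean 474 ± 54.7 CPM (SD, n = 3). The log2 fold change was 0.70 ± 0.10 (here and below with its SE), with an edgeR adjusted p of 0.000416. Slc11a2, the divalent metal transporter DMT1, showed the largest fold change of the 10. It had 40.5, 39.0, 34.9 and 35.1 CPM in P6a to P6d, against 64.8, 65.8 and 60.6 CPM in P30a to P30c. Its values were close together within each age and far apart between the ages, with a log2 fold change of 0.77 ± 0.095 (edgeR adjusted p = 0.00013). Iron itself and the iron regulatory proteins were not measured.

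The ferritin genes did not move together. Ferritin is a shell of heavy chains, which oxidise iron, and light chains, which help to lay it down in the core. Fth1, the heavy chain gene, had 1551, 1110, 1157 and 1383 CPM in P6a to P6d, against 1608, 1491 and 1690 CPM in P30a to P30c. P6a lay inside the range of the P30 libraries, and the log2 fold change of 0.30 ± 0.12 did not pass the test (edgeR adjusted p = 0.0632, 95% interval 0.024 to 0.57). That call turned on the processing: Fth1 passed with median-of-ratios (RLE) size factors (edgeR adjusted p = 0.0467) and without P6a (0.39, edgeR adjusted p = 0.0171), and the authors' deposited table gives it a log2 fold change of 0.31 with an adjusted p of 0.0459. Ftl1, the light chain gene, had 173, 152, 162 and 190 CPM in P6a to P6d. In P30a to P30c it had 125, 130.0 and 101 CPM, below all P6 libraries. Its log2 fold change was -0.51 ± 0.12 (edgeR adjusted p = 0.00432), and -0.23 (edgeR adjusted p = 0.113) once a trend of counts on transcript length was taken out of each library. The Ftl1 count is uncertain: 5 other annotated genes match its transcript at 95% identity or more over at least 50% of its length, the closest being Ftl1-ps1 at 99.56% over 910 of 968 bases, and none of the 5 is a row of the count table.

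The heavy chain share of ferritin counts, which needs no scaling between libraries, was 89.9%, 88.0%, 87.7% and 87.9% in P6a to P6d, against 92.8%, 92.0% and 94.4% in P30a to P30c. It was higher in every P30 library, with a mean of 88.4% ± 1.04 (SD, n = 4) against 93.1% ± 1.21 (SD, n = 3). The exact permutation test gave p = 0.0286 (two-sided), which is the lowest value possible with 35 ways to divide 7 libraries. Adjusted by Benjamini-Hochberg over the 4 shares tested it was 0.0571, which does not pass. With 7 libraries a share could pass after adjustment only if most of the 4 shares had the lowest possible p. Not passing therefore does not speak against a difference. With counts divided by annotated exon length the means were 74.6% and 83.8%. The trend of counts on transcript length was not taken out of the share, and the uncertainty of the Ftl1 count applies to it too.

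Slc40a1, ferroportin, the iron exporter, had 23.9, 21.9, 24.1 and 21.4 CPM in P6a to P6d, against 31.0, 43.1 and 26.45 CPM in P30a to P30c. The P6 values lay close together, while P30b stood well above the other P30 libraries. The log2 fold change of 0.55 ± 0.16 passed (edgeR adjusted p = 0.0158), but without P30b it was 0.33 and did not (edgeR adjusted p = 0.0754). Ferroportin is also made by macrophages; P30b was the library with most macrophage and endothelial marker counts, and the part of these cells in the result was not tested. Slc40a1 was counted far below Tfrc at both ages. Tfrc made up 92.7% ± 0.763 (SD, n = 4) of the summed counts of the pair at P6 and 93.3% ± 2.39 (SD, n = 3) at P30, which did not differ beyond the spread (exact permutation p = 0.657, 0.657 adjusted over the 4 shares), and the sign of the difference turned without P30c.

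**Figure D2:**
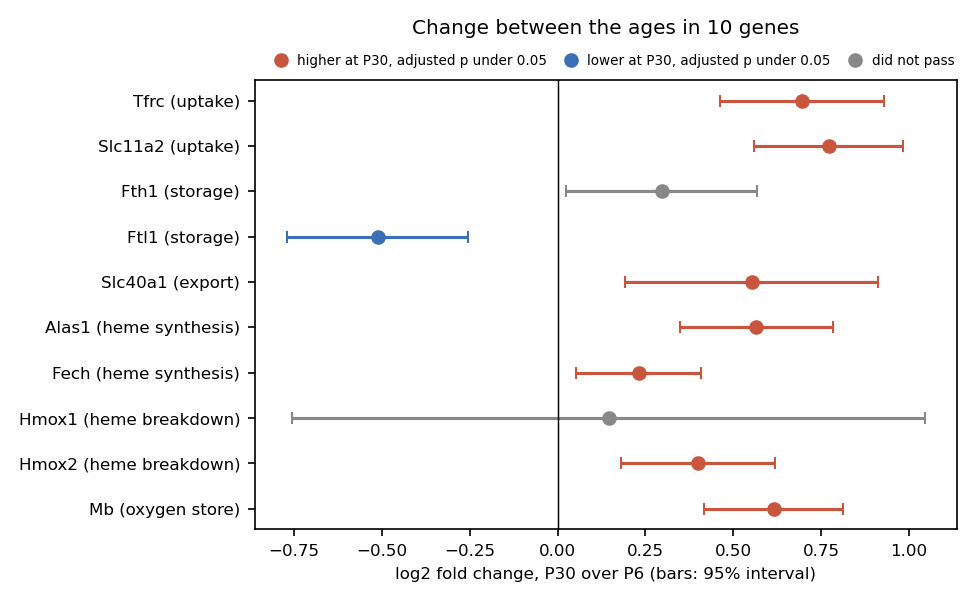
Log2 fold change (P30 over P6, horizontal axis) of each of the 10 genes with its 95% interval, coloured by the edgeR call. The intervals of Tfrc and Slc11a2 lie above 0.46, that of Ftl1 lies below 0, and that of Hmox1 runs from -0.76 to 1.05.

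Heme synthesis begins and ends in mitochondria. Alas1 encodes 5-aminolevulinate synthase 1, the housekeeping form of the first and rate-limiting enzyme. It had 434, 402, 412 and 409.6 CPM in P6a to P6d, then 544, 592.5 and 703 CPM in P30a to P30c. The P6 libraries spanned a narrow range, the P30 libraries a wider one that lay wholly above it. The means were 414 ± 13.9 CPM at P6 (SD, n = 4) and 613 ± 81.8 CPM at P30 (SD, n = 3), and the log2 fold change was 0.57 ± 0.098 (edgeR adjusted p = 0.000949). Fech, ferrochelatase, the last enzyme of the pathway (chr18:64452914-64490251, minus strand), rose less. It had 234, 216, 220 and 209.8 CPM in P6a to P6d, against 274, 247 and 253 CPM in P30a to P30c. The ages did not overlap, but P6a and P30b were close, and the log2 fold change was 0.23 ± 0.080 (edgeR adjusted p = 0.0329). That call was not stable: it was lost on leaving out P6c, P6d, P30a, P30b or P30c (highest edgeR adjusted p 0.131), and the log2 fold change was 0.088 with the length trend removed.

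The Alas1 share of the summed Alas1 and Fech counts was 65.0%, 65.0%, 65.2% and 66.1% in P6a to P6d, against 66.5%, 70.6% and 73.6% in P30a to P30c. The P30 libraries were all higher, P30a only just. The means were 65.4% ± 0.535 (SD, n = 4) and 70.2% ± 3.55 (SD, n = 3), with an exact permutation p of 0.0286 and 0.0571 after adjustment over the 4 shares, which does not pass. As for the ferritin share, 0.0286 is the lowest value possible, so not passing does not speak against a difference.

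Heme oxygenases open the heme ring. Hmox2, the constitutive enzyme, had 53.55, 44.1, 46.9 and 52.4 CPM in P6a to P6d, against 66.1, 62.5 and 65.9 CPM in P30a to P30c. All P30 libraries were above all P6 libraries, with a log2 fold change of 0.40 ± 0.098 (edgeR adjusted p = 0.00662). Hmox1, the inducible enzyme of heme and oxidative stress, was scarce at both ages, with 18, 55, 228 and 55 counts in P6a to P6d, against 62, 66 and 36 counts in P30a to P30c. This corresponded to 1.63, 1.83, 4.20 and 4.64 CPM at P6 and 3.46, 4.27 and 2.53 CPM at P30. The P6 libraries fell apart into P6a and P6b, which were low, and P6c and P6d, which were above 4 CPM, and the ages overlapped. The log2 fold change was 0.15 ± 0.40 (edgeR adjusted p = 0.779, 95% interval -0.76 to 1.05), and the interval includes changes in both directions. Acta2, which made up most of the summed smooth muscle and pericyte marker counts, also had lower values in P6a and P6b (915 and 919 CPM) than in P6c and P6d (2075 and 1916 CPM). Rgs5, Cspg4 and Tagln had the same order, Tagln by little in P6d, while Myh11, Pdgfrb and Kcnj8 did not. Genes outside the smooth muscle and pericyte list also split. Slc39a14 (15.6 and 24.1 against 61.5 and 55.6 CPM) and Jun (116 and 116 against 168 and 164 CPM) had the same order. Atf3 had the reverse order (67.6 and 88.6 against 22.7 and 22.45 CPM). At P6 Acta2 was far above Tagln (2.80 to 6.95 CPM) and Myh11 (2.87 to 10.8 CPM), and which cells its counts came from was not tested. The part of smooth muscle cells and pericytes in the Hmox1 counts was not tested either. Hmox1 was 5.82% ± 2.75 of heme oxygenase counts at P6 and 5.02% ± 1.35 at P30 (exact permutation p = 0.629, 0.657 adjusted).

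Mb, myoglobin, was the ninth most counted gene of the whole table at P6 and the sixth at P30. It had 8890, 7772, 7747 and 9318 CPM in P6a to P6d, against 13634, 12671 and 12455 CPM in P30a to P30c. The lowest P30 library was well above the highest P6 library. Means were 8432 ± 796 CPM at P6 (SD, n = 4) and 12920 ± 628 CPM at P30 (SD, n = 3), with a log2 fold change of 0.62 ± 0.088 (edgeR adjusted p = 0.000327). Cygb, cytoglobin, a related oxygen-binding protein, had 1.79 ± 0.538 CPM at P6 and 2.74 ± 0.662 CPM at P30 and did not pass (log2 fold change 0.57 ± 0.32).

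Scaled per kilobase of annotated exon, the order of levels at P6 was Mb, Fth1, Ftl1, Alas1, Tfrc, Hmox2, Fech, Slc11a2, Slc40a1 and Hmox1. Mb stood at 5651 ± 533 CPM per kilobase (SD, n = 4), and Fth1 followed at 375 ± 59.2. At P6 the neighbours Slc40a1 (2.54 ± 0.151) and Hmox1 (1.76 ± 0.895) overlapped over libraries. At P30 Alas1 (99.3 ± 13.3) passed Ftl1 (88.5 ± 11.5), but their ranges overlapped, as did those of Ftl1 and Tfrc (76.7 ± 8.84). Lengths were the union of all annotated exons, 1492 bases for Mb, 3469 for Fth1 and 13838 for Fech, a length that can exceed that of the mRNA present, so the order between genes depends on the annotation.

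The 3 genes whose log2 CPM followed Tfrc most closely over the 7 libraries, among 8222 other genes with a mean of at least 10 CPM, were Msl2, Galnt1 and Fam13a, with Pearson's r of 0.995, 0.993 and 0.989. For Mb they were Gm14403, Slc26a2 and AI597479, with r of 0.996, 0.994 and 0.994 (0.9935 for the last). These are the highest of many correlations over only 7 libraries that differ mainly by age.

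The wider pathway was described with lists that hold, besides the 10 members, 71 other tested genes of iron handling, heme handling, iron-sulfur cluster assembly and globins. Of these 24 were higher and 10 lower at P30, which is 33.8% and 14.1%, against 26.3% and 27.8% of all tested genes. In either direction 47.9% of the 71 were called, against 54.1% of all tested genes. The median log2 fold change of the 71 was 0.19. The lists were chosen with earlier results of these data known, so their balance of directions may reflect that choice. The balance depended on the scaling: with the members included, 31 were higher and 11 lower, but 21 and 20 with library totals, a scaling that moved all tested genes from 3307 higher and 3490 lower to 2408 and 4658.

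**Figure D3:**
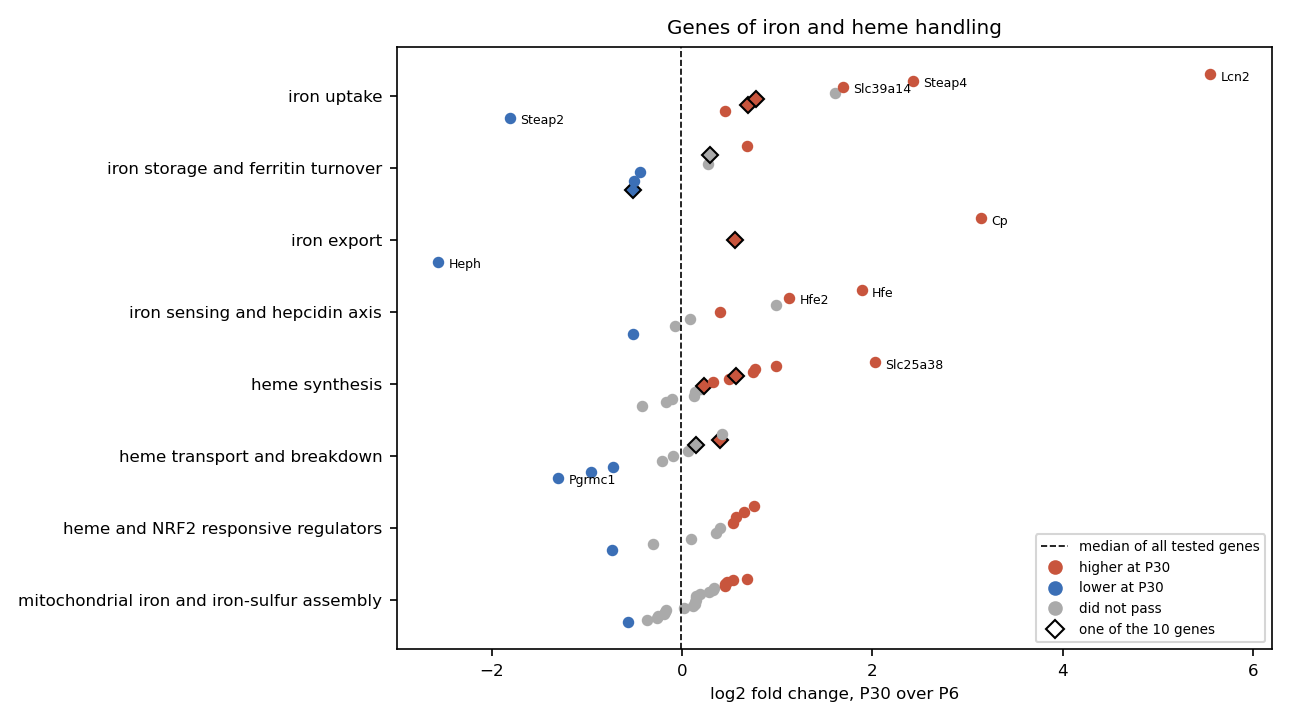
Log2 fold change (P30 over P6, horizontal axis) of each tested gene in 8 lists of iron and heme handling, coloured by the edgeR call, with 9 of the 10 genes as outlined diamonds (Mb, in the globin list, is not plotted) and the median of all tested genes (-0.016) as a dashed line. Heme synthesis has no gene called lower, and the largest changes plotted are of genes other than the diamonds. The largest of all, of Lcn2, is of a gene near 0 at P6.

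Iron uptake had 6 of 8 tested genes higher and 1 lower, with a median log2 fold change of 1.19. Lcn2, among the 6, had 0.0167 ± 0.0333 CPM at P6 and 1.155 ± 0.235 CPM at P30. It passed the filter on low counts only through the P30 libraries, and it raises the list median. Slc39a14, the transporter ZIP14, which carries iron not bound to transferrin, went from 39.2 ± 22.8 to 127 ± 35.5 CPM (log2 fold change 1.69 ± 0.41, edgeR adjusted p = 0.00665). Like Hmox1, it was lower in P6a and P6b than in P6c and P6d. Steap4, a metalloreductase, rose from 4.33 ± 0.682 to 23.6 ± 8.52 CPM, with 23.2, 32.25 and 15.2 CPM in P30a to P30c. P30b also had the most macrophage and endothelial marker counts, and the part of other cells in this rise was not tested. Steap2, a relative of Steap4 and the 1 lower gene of the list, fell from 1.72 ± 0.854 to 0.478 ± 0.367 CPM (edgeR adjusted p = 0.0352). Steap2 passed the filter on low counts only through the P6 libraries, so its direction was largely set by the filter. Steap3, the reductase of the transferrin cycle, rose from 32.7 ± 6.08 to 44.9 ± 4.15 CPM.

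Genes of iron export diverged. The ferroxidases that work with ferroportin load iron onto transferrin, and their 2 genes moved in opposite directions. Cp, ceruloplasmin, rose from 10.7 ± 2.37 to 94.0 ± 10.8 CPM (log2 fold change 3.14 ± 0.17, edgeR adjusted p = 1.39e-06). Heph, hephaestin, fell from 24.7 ± 6.08 to 4.19 ± 0.650 CPM (log2 fold change -2.56 ± 0.22). Hamp, the gene of hepcidin, the peptide that removes ferroportin from the membrane, was too scarce to be tested.

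Of 7 tested genes of iron sensing and the hepcidin axis, 3 were higher and 1 lower. The mRNAs of the 2 iron regulatory proteins, which bind the hairpins shown above, changed in opposite directions. Aco1, which encodes iron regulatory protein 1 and is a cytosolic aconitase when it holds a cluster, rose from 76.7 ± 5.06 to 101 ± 5.64 CPM (log2 fold change 0.40 ± 0.088, edgeR adjusted p = 0.00402). Ireb2, which encodes iron regulatory protein 2, fell from 69.8 ± 1.85 to 48.9 ± 2.17 CPM (log2 fold change -0.51 ± 0.083, edgeR adjusted p = 0.000688). Fbxl5, the ubiquitin ligase subunit that removes iron regulatory protein 2, had 76.2 ± 3.63 and 80.8 ± 6.06 CPM and did not pass. Hfe2, hemojuvelin, a co-receptor of bone morphogenetic proteins, rose from 149 ± 10.6 to 325 ± 25.0 CPM, and Hfe, whose loss causes hemochromatosis, from 17.7 ± 2.55 to 65.7 ± 4.04 CPM.

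Ferritin turnover and iron chaperones gave 1 higher and 3 lower of 6 tested, the latter including Ftl1. Herc2, a ubiquitin ligase, rose from 35.7 ± 1.86 to 57.3 ± 6.55 CPM. Pcbp1, a chaperone that delivers iron to ferritin, fell from 215 ± 10.1 to 158 ± 19.4 CPM, and its relative Pcbp2 by 0.51 ± 0.14 on the log2 scale. Ncoa4, the receptor that sends ferritin to the lysosome, had 23.4 ± 1.12 and 28.3 ± 7.59 CPM and did not pass.

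Of 14 tested genes of heme synthesis, Alas1 and Fech included, 8 were higher and none lower, with a median log2 fold change of 0.28. Slc25a38, the mitochondrial carrier that supplies glycine to the first step, rose from 8.53 ± 0.251 to 34.7 ± 2.03 CPM (log2 fold change 2.02 ± 0.11, edgeR adjusted p = 1.57e-06). Of enzymes that act after Alas1, Alad had a log2 fold change of 0.20 ± 0.094 and did not pass. Uros rose by 0.75 ± 0.098, and Urod had -0.17 ± 0.078, which did not pass. Cpox rose by 0.98 ± 0.10, Ppox had -0.42 ± 0.17 and did not pass, and Fech closed the pathway. The porphyrin transporter Abcb6 rose by 0.76 ± 0.10. Alas2, the erythroid form of the first enzyme, had 0.728 ± 0.553 CPM at P6 and 0.235 ± 0.189 CPM at P30 and was not tested.

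Heme transport and breakdown had 1 gene higher, Hmox2, and 3 lower of 9 tested. Pgrmc1, a heme-binding membrane protein, fell from 35.5 ± 3.63 to 14.4 ± 2.01 CPM, and Pgrmc2, a heme chaperone, from 52.9 ± 2.39 to 31.98 ± 4.07 CPM. Blvrb, a biliverdin reductase, fell by 0.96 ± 0.23 on the log2 scale, while Blvra, the reductase that makes bilirubin from the product of heme oxygenase in adult tissue, had a log2 fold change of -0.21 ± 0.15 and did not pass.

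Of 9 regulators that respond to heme or act in the NRF2 pathway, 4 were higher and 1 lower. Nfe2l1 rose from 391 ± 74.3 to 578 ± 29.3 CPM and Keap1, the adaptor that keeps NRF2 low, from 63.3 ± 6.65 to 91.8 ± 7.12 CPM. The heme-binding nuclear receptors of the clock parted, with Nr1d1 at 45.9 ± 4.97 and 77.9 ± 27.1 CPM (higher) and Nr1d2 at 93.3 ± 16.6 and 56.0 ± 10.7 CPM (lower). The hour of collection is not stated.

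Iron-sulfur cluster assembly and mitochondrial iron import gave 5 higher, 1 lower and 17 of 23 that did not pass. Nfs1, the desulfurase that supplies sulfur, rose from 136 ± 3.80 to 218 ± 6.30 CPM and Hspa9, a mitochondrial chaperone, from 889 ± 77.7 to 1211 ± 39.6 CPM. Nfu1, which passes clusters to target proteins, fell from 79.7 ± 11.8 to 53.8 ± 5.57 CPM.

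**Figure D4:**
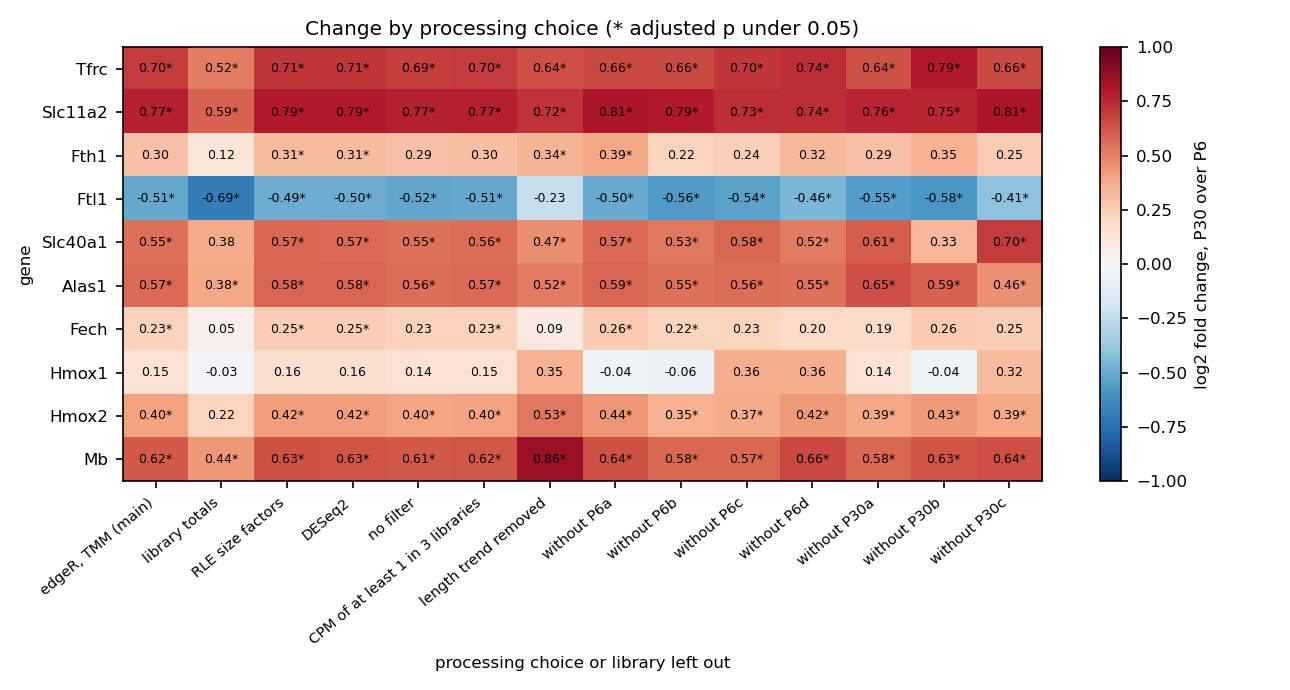
Log2 fold change (P30 over P6, colour and printed value) of each of the 10 genes (rows) under each processing choice or with a library left out (columns), with a star where the adjusted p is under 0.05. Tfrc, Slc11a2, Alas1 and Mb carry a star in every column, Fech in 6 and Hmox1 in none.

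The changes of Tfrc, Slc11a2, Alas1 and Mb passed the test under all 13 alternatives tried, with lowest log2 fold changes of 0.52, 0.59, 0.38 and 0.44. Those lowest values came from scaling by plain library totals, which moved the median of all genes from -0.016 to -0.20; with that scaling Hmox2 (0.22, edgeR adjusted p = 0.0585), Slc40a1 (0.38, edgeR adjusted p = 0.0864) and Fech (0.050, edgeR adjusted p = 0.611) did not pass. Of the 10 members, 9 have, in the authors' deposited table, an adjusted p under 0.05, against 42.9% of the 16500 genes that it gives one for, and Hmox1 is the exception. Exon overlap affects 5 members, which share exon bases with another annotated gene (Ftl1, Slc11a2, Alas1, Hmox2 and Mb), and the strand setting of the count is not given in the sources used here.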

How the data were processed

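The submitters' processing notes list CASAVA 1.8, STAR 2.5.3a, Subread 1.5.2 with featureCounts, and mm10; the annotation, strand and multi-mapping settings were not given in the sources used here. Libraries were made with SMART-Seq and Nextera XT kits, per the labels' protocols. One protocol text has cells taken at P14, whereas titles and age labels say P6 or P30, and the latter were used. The authors deposited whole read counts per gene. Each count column was assigned to an age by the start of its name, since no label ties its letter to a sample.

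A further deposited table is, per the file headers, a DESeq2 comparison: baseMean is a signal (mean scaled count), fold changes are on the log2 scale, the Wald statistic is a score, and p-values are the authors'. Its sign was P30 over P6 in 2892 of 2892 genes checked.

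The test used edgeR 4.0.16 (R 4.3.3) with filterByExpr, TMM factors, a quasi-likelihood fit of age without covariates, and Benjamini-Hochberg adjustment over 12561 genes. The procedure was tested on simulated data. SE is the absolute log2 fold change divided by the root of F. CPM uses counts of tested genes times TMM factors. Exon lengths came from GENCODE M21, by symbol for 20953 genes and by synonym for 1904. Copies were searched with blastn 2.17.0. Shares were compared by exact permutation. Alternatives were library totals, RLE factors, DESeq2 1.42.0, 2 filters, removal of a length trend, and leaving out each library.

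The members and lists were chosen with earlier results of these data known. Named genes were the members; in each list the 2 most counted called genes per direction and the largest called change with a mean of at least 1 CPM; in marker lists and the stress list the 2 most counted genes; and the 3 genes most like Tfrc and Mb. Other genes (Steap3, Lcn2, Pcbp2, Ncoa4, Fbxl5, Hamp, Cygb, Blvra, Blvrb, Abcb6, Alad, Uros, Urod, Cpox, Ppox, Hba-a1, Hba-a2, Cx3cr1, Atf3 and smooth muscle markers other than Acta2 and Cspg4) were named after their values were seen.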

Additional observations from a re-analysis of the deposited data

Results flagged for a closer look

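The Fth1 share of ferritin counts in P6a, 89.9%, lay far from the other P6 libraries, which ranged from 87.7% to 88.0%; its gap to the nearest library was 0.887 of the whole P6 range, above Dixon's critical value for 4 libraries. In all 14 sets of 4 P6 values were checked (10 genes and 4 shares) and 1 was marked, and chance marks about 1 in 20. P30 libraries, with 3 values, were not checked.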

How the results depend on the processing

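Of the 10 members, 7 were higher at P30, and 4 with library totals; between 5 and 8 were higher with 1 library left out. Over the latter fits 2788 to 3460 of all tested genes were higher, against 3307 with every library. The 1 lower member became 0 with the length trend removed. Of 81 tested genes in the pathway lists, members included, 31 were higher and 11 lower; these counts became 21 and 20 on scaling by library totals, and with 1 library left out 27 to 33 were higher and 10 to 14 lower. Hmox1 changed sign with library totals (log2 fold change -0.027), and ranged from -0.057 to 0.36 with 1 library left out, negative without P6a, P6b or P30b. The difference in the Tfrc share of Tfrc and Slc40a1 counts ranged from -0.306 to 1.91 percentage points with 1 library left out and was negative without P30c. With 1 library left out, 7 libraries become 6, and the exact test of a share cannot pass its threshold, so those values say nothing on stability. The log2 fold change of Fth1 ranged from 0.12 to 0.39 over 13 alternatives, of which 4 passed. None of the 5 genes found to be near-identical to Ftl1 is a row of the table, so adding counts of copies was not run. No paired analysis was possible because the count columns carry letters and not the replicate numbers of the labels. Depth limits Hmox1 most, with 18 counts in P6a.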
